A study of Mus musculus with 20 samples.

Results

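The Fc receptor genes of microglia and macrophages were measured by RNA sequencing of mouse brain tissue after stroke. They are 7 of the 46078 genes listed in the count tables and were chosen by name. The list holds receptors of these cells that bind immunoglobulin, the adaptor that carries their signal and a receptor-like relative. Its members are Fcgr1, Fcgr3 and Fcgr4 (activating receptors for IgG), Fcgr2b (the inhibitory receptor), Fcer1g (the signalling adaptor), Fcrls (an Fc receptor-like protein) and Fcgrt (the heavy chain of the neonatal Fc receptor, FcRn). All 7 are in the tables, and 6 of them had counts in every library.

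The tissue came from wild type male C57BL/6J mice aged 18 months that received a DH stroke, an occlusion of the distal middle cerebral artery combined with hypoxia. From 1 week after stroke the mice were injected subcutaneously 3 times per week for 6 weeks, either with vehicle (sterile PBS) or with 4 g/kg of HPBCD (hydroxypropyl-β-cyclodextrin, a ring-shaped sugar that takes up lipids). At 7 weeks the infarct was removed, and the peri-infarct tissue beside it and the matching contralateral tissue were taken from the same mice, which gave 4 groups of 5 libraries. Every mouse had a stroke, so the contralateral tissue of a mouse with stroke is the reference, and the tissue holds all its cell types.

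Receptors for the Fc part of IgG let phagocytes recognise antibody bound to a target. The activating receptors signal through the ITAM motif of the adaptor FCER1G, which recruits the kinase SYK, whereas FCGR2B carries an ITIM motif that recruits phosphatases and restrains that signal. In the brain, microglia are the main carriers of these receptors, perivascular macrophages carry them too, and Fcrls is known as a microglia-enriched gene. FcRn works differently: it binds IgG and albumin inside acidic endosomes together with its light chain, B2m, and returns them to the cell surface, in endothelial cells as well as in myeloid cells.

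Fcgr2b, Fcgr4, Fcgr3 and Fcer1g lie near each other on chromosome 1 (GRCm38), at chr1:170958617-170976547, chr1:171018920-171029761, chr1:171051174-171064935 and chr1:171229572-171234365. Fcgr1 and Fcrls lie on chromosome 3, at chr3:96282909-96293969 and chr3:87250758-87263738, and Fcgrt lies on chromosome 7, at chr7:45092990-45103851. Fcgr2b and Fcgr3 are near copies in part of their length: 94 of the 1733 windows of 75 exonic bases in Fcgr3 (5.42%) are also found in Fcgr2b, so that a read from them does not by itself name 1 gene, though its mate may. Of the Fcgr2b windows, 156 of 5768 (2.7%) occur in another gene, and 155 exonic bases of Fcgr2b overlap Gm38204 on the opposite strand. No window of the other 5 genes was shared.

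The sequence just before the transcription start was searched for GAGGAA, the core letters bound by PU.1, the transcription factor on which microglia and macrophages depend, since most of these genes moved together in the comparisons below. The letters were looked for on both strands (TTCCTC on the other strand) in the 250 bases upstream of the first start that RefSeq gives for each gene (GRCm38.p6), and no other motif was searched. They were found in 4 of the 7 genes (57.1%), against 6252 of 27025 genes (23.1%) with a promoter in the same table. The stretches of 30 bases that hold the match are given 5′ to 3′ on the strand of the gene, with the match in capitals. They lie at chr3:96294007-96294036 on the minus strand for Fcgr1, chr1:171059404-171059433 on the minus strand for Fcgr3 (for which RefSeq lists 2 starts), chr1:171018892-171018921 on the plus strand for Fcgr4 and chr3:87263651-87263680 on the minus strand for Fcrls:
Fcgr1: atggcaacttccTTCCTCttttctaatctt
Fcgr3: ggttaagcaagagagtccatttccTTCCTC
Fcgr4: aaggctatttacTTCCTCtcttctagtcaa
Fcrls: caagtctgtaaaGAGGAAggacgtttgctt

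The matched letters end 50 bases before the start in Fcgr1, 1 base before it in Fcgr3, 17 bases in Fcgr4 and 139 bases in Fcrls. The 250 bases before the starts of Fcgr2b, Fcer1g and Fcgrt do not hold these letters. The stretches of Fcgr3 and Fcrls, and the 250 bases searched for Fcgr2b, lie inside the gene spans given above. The starts used for these genes are therefore internal to the annotated spans. Of the 2 starts of Fcgr3 only the first was searched, so the count of 4 genes depends on the start chosen. The stretch before Fcgrt is shown because Fcgrt was the gene called between treatments and not between the regions of vehicle mice. It lies at chr7:45103823-45104072 on the minus strand:
Fcgrt: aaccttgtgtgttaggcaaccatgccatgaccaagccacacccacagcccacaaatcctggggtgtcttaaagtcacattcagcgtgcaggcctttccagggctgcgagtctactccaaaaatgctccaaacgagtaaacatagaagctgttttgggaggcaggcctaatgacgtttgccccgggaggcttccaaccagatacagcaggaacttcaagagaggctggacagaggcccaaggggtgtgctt

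A match describes the letters only and is not evidence of binding.

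The libraries held between 14445021 and 22171627 counts in genes (median 19008532), so that 3 counts correspond to 0.125 to 0.231 CPM (counts scaled to the size of the library). The treatment labels carry a doubt that bears on every treatment difference below and on each regional result given by treatment. A list of 33 genes with a direction for HPBCD in peri-infarct tissue, taken from the study's account, was set against the libraries as labelled: 32 were tested, all 32 had the opposite sign, and 18 of these were called. The groups are therefore called by their labels, and the direction of a treatment difference holds only if the labels do. The same goes for naming a regional difference as that of vehicle or of HPBCD mice. Whether the labels or the direction in the account are reversed was not tested. In HPBCD contralateral replicate 4, the reads outside genes (9.5%) and those that could not be given to 1 gene (8.03%) were the highest of the 20 libraries.

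Per length of exon, the means of the genes fell into a high and a low set. In vehicle contralateral tissue, Fcer1g stood at 12.5 ± 2.56 CPM per kilobase (SD, n = 5), Fcrls at 9.84 ± 1.24, Fcgr3 at 9.09 ± 1.00 and Fcgrt at 8.20 ± 1.38. Fcgr1 followed at 1.42 ± 0.278, Fcgr2b at 0.855 ± 0.143 and Fcgr4 at 0.238 ± 0.173. The ranges of neighbours overlapped within the high set, whereas Fcgr1, Fcgr2b and Fcgr4 did not overlap each other or the high set. In vehicle peri-infarct tissue the order was Fcer1g (37.1 ± 17.7), Fcgr3 (23.8 ± 8.59), Fcrls (23.2 ± 11.03), Fcgrt (10.3 ± 3.34), Fcgr1 (4.54 ± 2.49), Fcgr2b (3.91 ± 2.54) and Fcgr4 (1.22 ± 0.71), and the ranges of all neighbours overlapped. In the HPBCD peri-infarct libraries, Fcgr2b (6.32 ± 1.99) and Fcgr1 (6.04 ± 1.76) exchanged places within overlapping ranges and stayed below Fcgrt (21.6 ± 5.05) without overlap, and Fcer1g again led with 61.0 ± 22.8.

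The first question was which of these genes differ between peri-infarct and contralateral tissue. In vehicle mice, 6 of the 7 were higher in peri-infarct tissue by edgeR's quasi-likelihood test with Benjamini-Hochberg adjustment over all genes tested, where 10.5% of 15801 genes were called higher and 20.2% were called in either direction. The groups did not overlap for 5 of the 7, against 6.23% of all genes with every peri-infarct library above every contralateral one. In the libraries labelled HPBCD all 7 were called higher and none overlapped, against backgrounds of 30.3% called higher (54.6% in either direction) and 22.5% higher without overlap. The median log2 difference of the 7 was 1.59 in vehicle and 2.14 in HPBCD tissue, beside 0.015 and 0.032 over all genes tested. Fcgr4 was too low to be tested in contralateral tissue and passed the filter on low counts through the peri-infarct libraries, where it is high, and without it the counts were 5 of 6 and 6 of 6. In bulk tissue, more cells of a type and more RNA per cell cannot be told apart, and this holds for each difference given here.

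**Figure D1:**
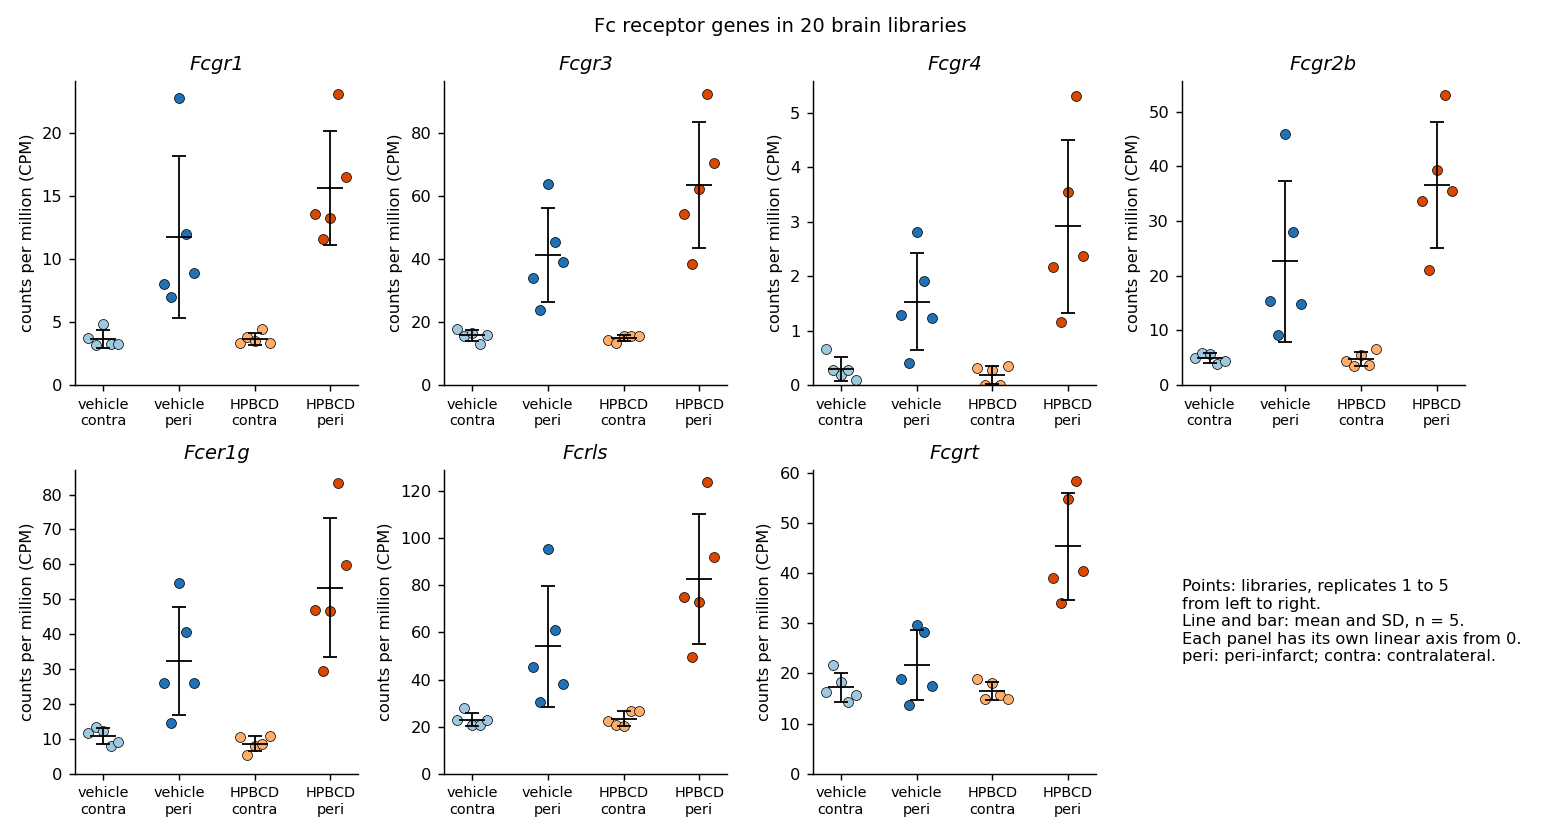
Level of each Fc receptor gene in CPM (linear axes from 0, 1 panel per gene) in the 4 groups of 5 libraries, with points for libraries and the mean with SD as line and bar. The peri-infarct libraries lie above the contralateral ones for the IgG receptors, Fcer1g and Fcrls apart from 1 vehicle library of Fcgr4, while Fcgrt is clearly higher only in the HPBCD peri-infarct libraries (34.0 to 58.4 CPM).

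Fcgr1 encodes the high-affinity receptor for IgG, also known as CD64. In vehicle contralateral replicates 1 to 5 it stood at 3.76, 3.17, 4.88, 3.28 and 3.24 CPM, and in the peri-infarct tissue of the vehicle mice at 8.03, 7.02, 22.8, 11.98 and 8.92 CPM. The HPBCD contralateral libraries held 3.35, 3.82, 3.49, 4.46 and 3.31 CPM and the HPBCD peri-infarct libraries 13.6, 11.6, 13.3, 23.1 and 16.5 CPM. The contralateral groups lay at the same level, all peri-infarct libraries lay above them, and vehicle peri-infarct replicate 3 stood near the highest HPBCD library. The log2 difference between regions was 1.69 ± 0.31 (SE) in vehicle mice (3.24-fold, adjusted p = 0.00498) and 2.14 ± 0.19 in HPBCD mice (4.40-fold, adjusted p = 2.25e-06, edgeR).

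Fcgr3 encodes the low-affinity activating receptor and was the most abundant of the IgG receptors. The vehicle contralateral libraries held 17.9, 15.7, 16.4, 13.1 and 15.8 CPM and the vehicle peri-infarct libraries 33.9, 23.9, 63.8, 45.6 and 39.0 CPM. In HPBCD mice the contralateral values were 14.5, 13.5, 15.6, 15.6 and 15.5 CPM, and the peri-infarct values were 54.5, 38.5, 62.4, 92.6 and 70.4 CPM. Both contralateral groups varied little (coefficient of variation 11% and 6.32%), and no peri-infarct library came down to them. Peri-infarct tissue was higher by 1.40 ± 0.22 on the log2 scale in vehicle mice (2.64-fold, adjusted p = 0.00265) and by 2.14 ± 0.19 in HPBCD mice (4.42-fold, adjusted p = 1.93e-06, edgeR).

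Fcgr4, an activating receptor of intermediate affinity known from monocytes and macrophages, was the scarcest. The raw counts behind it were 12, 5, 3, 5 and 2 in the vehicle contralateral libraries and 25, 8, 50, 41 and 26 in the vehicle peri-infarct libraries. In HPBCD mice they were 6, 0, 4, 0 and 6 in contralateral and 52, 23, 75, 100 and 51 in peri-infarct tissue. In the 2 libraries with no count, a count of 0 allows up to 0.153 and 0.231 CPM, counting error only. The vehicle groups overlapped in 1 peri-infarct library, replicate 2, and the HPBCD groups did not overlap. The log2 difference between regions was 2.34 ± 0.55 in vehicle mice (adjusted p = 0.0129) and 3.94 ± 0.61 in HPBCD mice (adjusted p = 0.000137, edgeR), with a wide 95% interval of 2.62 to 5.26 for the latter.

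Fcgr2b, the inhibitory receptor, had the largest regional difference after Fcgr4. Its values in vehicle contralateral tissue were 4.92, 5.90, 5.61, 3.88 and 4.44 CPM, and in vehicle peri-infarct tissue 15.3, 9.19, 45.9, 28.0 and 14.8 CPM. The HPBCD contralateral libraries held 4.31, 3.42, 5.58, 3.69 and 6.51 CPM, and the HPBCD peri-infarct libraries 33.7, 21.1, 39.4, 53.1 and 35.4 CPM. Every peri-infarct library exceeded every contralateral one, and the vehicle peri-infarct group was the most variable (coefficient of variation 65%). The log2 difference was 2.21 ± 0.38 in vehicle mice (4.63-fold, adjusted p = 0.00391) and 3.01 ± 0.24 in HPBCD mice (8.03-fold, adjusted p = 1.23e-06, edgeR).

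Fcer1g encodes the common γ chain, on which surface expression and signalling of the activating receptors depend. It stood at 11.6, 13.4, 12.3, 7.97 and 9.17 CPM in vehicle contralateral and at 26.0, 14.6, 54.7, 40.6 and 26.1 CPM in vehicle peri-infarct libraries. In HPBCD mice it stood at 10.4, 5.40, 7.96, 8.61 and 10.9 CPM in contralateral and at 47.0, 29.5, 46.7, 83.2 and 59.9 CPM in peri-infarct libraries. The lowest vehicle peri-infarct library (replicate 2) lay just above the highest contralateral one. The log2 difference was 1.59 ± 0.30 in vehicle mice (3.01-fold, adjusted p = 0.00579) and 2.67 ± 0.26 in HPBCD mice (6.37-fold, adjusted p = 3.83e-06, edgeR). Tyrobp, the sister adaptor with an ITAM, rose by 1.73 ± 0.31 and 2.72 ± 0.23 in the same comparisons (adjusted p = 0.00462 and 1.40e-06), and Fcer1g minus Tyrobp on the log2 CPM scale stayed between -0.41 and -0.26 in the means of the 4 groups.

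Fcrls, the Fc receptor-like gene, is known as a marker of resident microglia. Its vehicle contralateral values were 22.7, 27.8, 20.9, 20.6 and 23.0 CPM, and its vehicle peri-infarct values were 45.4, 30.4, 95.5, 61.0 and 38.2 CPM. The HPBCD libraries held 22.3, 20.5, 20.5, 26.8 and 26.7 CPM in contralateral and 75.03, 49.7, 72.9, 123.9 and 91.9 CPM in peri-infarct tissue. Neither treatment's regions overlapped. Of the genes called in vehicle tissue it had the smallest difference, 1.25 ± 0.27 on the log2 scale (2.38-fold, adjusted p = 0.00882), and in HPBCD mice it differed by 1.87 ± 0.20 (3.66-fold, adjusted p = 7.64e-06, edgeR).

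Fcgrt was not called between the regions of vehicle mice. The vehicle contralateral libraries held 16.2, 21.8, 18.3, 14.3 and 15.7 CPM and the vehicle peri-infarct libraries 18.9, 13.8, 29.7, 28.4 and 17.5 CPM, so that 3 of the 5 peri-infarct values lay within the contralateral range or below it. The HPBCD contralateral libraries held 18.9, 14.9, 18.1, 15.7 and 14.9 CPM and the HPBCD peri-infarct libraries 39.1, 34.0, 54.7, 58.4 and 40.5 CPM, all above every library of the other 3 groups. The log2 difference between regions was 0.34 ± 0.21 in vehicle mice (95% interval -0.11 to 0.79, adjusted p = 0.266, not called) and 1.51 ± 0.15 in HPBCD mice (2.84-fold, adjusted p = 4.93e-06, edgeR). B2m, its light chain partner, was called higher in both, by 0.97 ± 0.23 (adjusted p = 0.0132) and 1.49 ± 0.19 (adjusted p = 3.64e-05). On the log2 CPM scale Fcgrt minus B2m was -2.56 ± 0.11 (SD, n = 5) in vehicle contralateral and -3.18 ± 0.23 in vehicle peri-infarct tissue, with ranges that did not overlap, but -2.70 ± 0.22 and -2.67 ± 0.29 in the HPBCD regions.

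**Figure D2:**
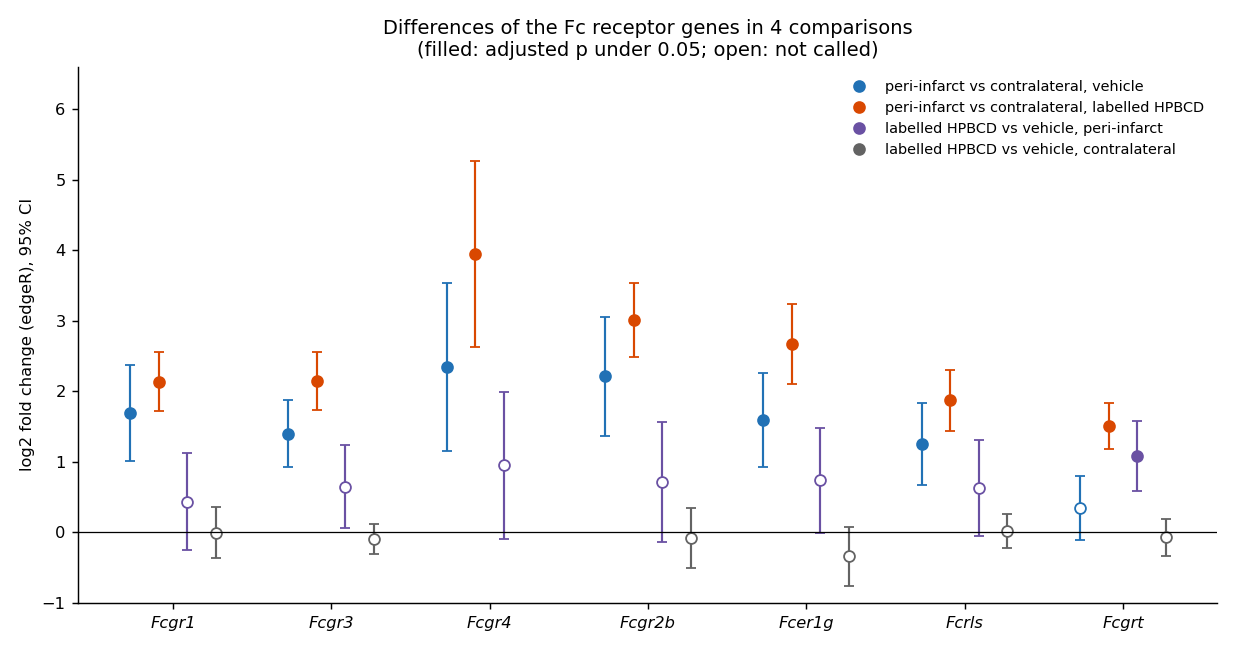
Log2 fold change (edgeR) of each Fc receptor gene with its 95% interval in 4 comparisons, filled where the adjusted p was under 0.05. The region differences are above 0 and called except for Fcgrt in vehicle mice, the treatment difference in peri-infarct tissue is called only for Fcgrt (1.09), and the contralateral treatment differences lie around 0 (Fcgr4 was not tested there).

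The second question was whether treatment changed these genes in peri-infarct tissue. Of the 7, only Fcgrt was called between the libraries labelled HPBCD and those labelled vehicle, where 21.4% of 16224 genes were called and 12.4% were called higher in the libraries labelled HPBCD. Fcgrt stood at 45.3 ± 10.6 CPM against 21.6 ± 7.02 CPM (SD, n = 5), a log2 difference of 1.09 ± 0.23 (2.12-fold, 95% interval 0.59 to 1.58 on the log2 scale, adjusted p = 0.0149, edgeR). It was the only member whose groups did not overlap, against 6.9% of all genes that were without overlap and higher in the libraries labelled HPBCD. The 2 comparisons between regions and the 2 between treatments share libraries, so they are not independent of each other.

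The other 6 had higher means in the HPBCD peri-infarct libraries but overlapping groups. Fcgr3 had a log2 difference of 0.65 (95% interval 0.059 to 1.23, adjusted p = 0.0998) and Fcer1g of 0.74 (-0.0070 to 1.48, adjusted p = 0.131). For Fcgr2b it was 0.71 (-0.14 to 1.56, adjusted p = 0.193), for Fcrls 0.63 (-0.048 to 1.31, adjusted p = 0.153), for Fcgr4 0.95 (-0.089 to 1.98, adjusted p = 0.159) and for Fcgr1 0.43 (-0.25 to 1.12, adjusted p = 0.325). The upper bounds of these intervals lie between 1.12 and 1.98, so a log2 difference of 1 was within the interval for each, and these data do not show the 6 genes to be alike between treatments. The median of the 7 was 0.71, against 0.014 over all genes tested.

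This count rested on single libraries. Vehicle peri-infarct replicate 3 was the highest of its group for all 7 genes, and without it 6 of the 7 were called: Fcgr1 (log2 difference 0.82, adjusted p = 0.0240), Fcgr2b (1.14, 0.0259), Fcgr3 (0.86, 0.0287), Fcer1g (1.01, 0.0386), Fcrls (0.94, 0.0256) and Fcgrt (1.23, 0.0135). Fcgr4 was not (1.28, adjusted p = 0.0673). HPBCD peri-infarct replicate 2 was the lowest of its group for all 7 genes, and without it Fcgr3 was called as well (0.78, adjusted p = 0.0374). Over all genes, 5339 were called without HPBCD peri-infarct replicate 2 against 3471 with all libraries. This was the most of the fits that left out 1 library, and the fewest was 823. The count over all genes without vehicle peri-infarct replicate 3 lay in this range and is not given here, so the 6 of 7 has no share beside it. Fcgrt kept its call without any 1 of the 10 libraries, with adjusted p from 0.0103 to 0.0457, the highest without HPBCD peri-infarct replicate 3. The library highest for the 7 genes in each peri-infarct group was also the highest of its group in the summed level of 10 microglia markers: vehicle replicate 3 (1154 CPM, the other 4 from 504.1 to 712.9) and HPBCD replicate 4 (1257 CPM, the other 4 from 761.6 to 961.5). Their part in the differences was not tested.

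**Figure D3:**
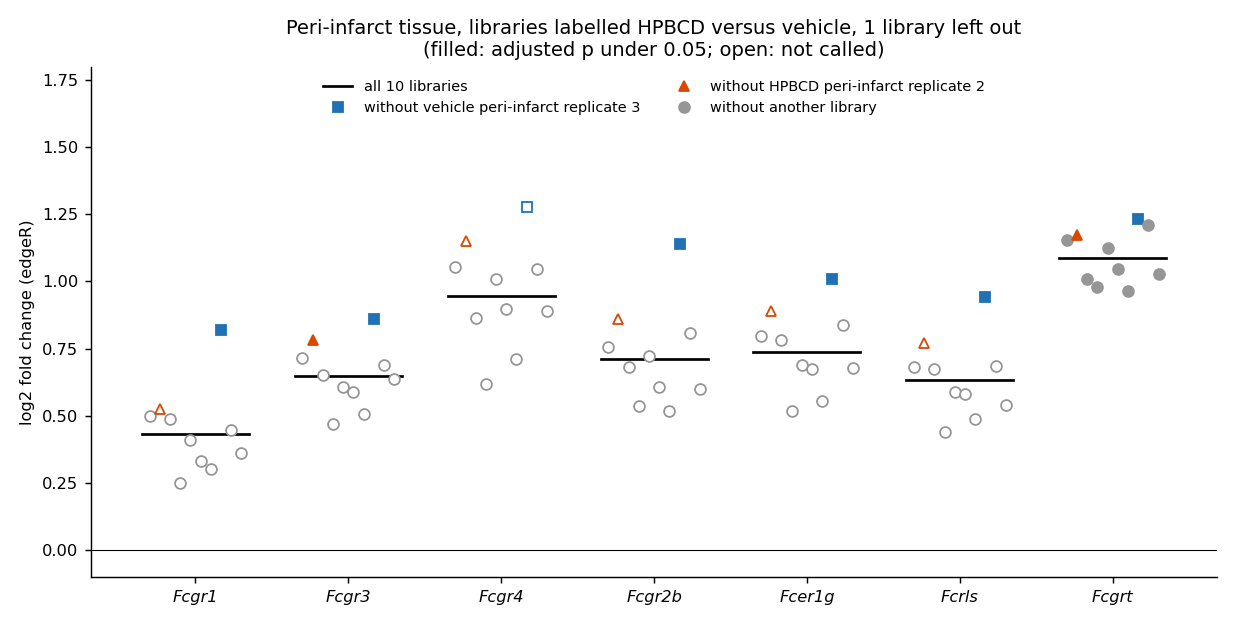
Log2 fold change (edgeR) of each Fc receptor gene between peri-infarct libraries labelled HPBCD and vehicle, with all 10 libraries (line) and with each library left out in turn (points, filled where the adjusted p was under 0.05). All values are above 0, Fcgrt is called in all 10 cases, and leaving out vehicle peri-infarct replicate 3 raises every gene, up to 1.28 for Fcgr4.

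In contralateral tissue, edgeR called 0 of the 6 genes tested between treatments, and 0.0% of 15469 genes. At an unadjusted p under 0.05 there were 0 of the 6 and 1224 of all genes, and DESeq2 called 0 of the 6 and 56 of all genes. The log2 differences ranged from -0.34 for Fcer1g (95% interval -0.76 to 0.081, adjusted p = 0.687) to 0.015 for Fcrls (-0.23 to 0.26, adjusted p = 0.984). For Fcgrt the difference was -0.072 (-0.34 to 0.19, adjusted p = 0.917). Fcgr4 had too few counts to be tested there.

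Whether the regional difference itself depended on treatment was tested as an interaction over all 20 libraries. Fcgrt was called, with a log2 interaction of 1.16 ± 0.27 (95% interval 0.59 to 1.72, adjusted p = 0.0200, edgeR), where 9.41% of 16758 genes were called and 5.03% were called with a positive sign. The other 6 had positive values that were not called, from 0.44 for Fcgr1 (adjusted p = 0.472) to 1.60 for Fcgr4 (adjusted p = 0.258), with Fcer1g at 1.08 (adjusted p = 0.104) and Fcgr3 at 0.74 (adjusted p = 0.119). Without vehicle peri-infarct replicate 3, 5 of the 7 were called: Fcgrt (1.29), Fcer1g (1.34), Fcgr2b (1.21), Fcgr3 (0.95) and Fcrls (0.92). Without HPBCD peri-infarct replicate 2, 3 were called: Fcgrt (1.28), Fcer1g (1.26) and Fcgr3 (0.91). Over all genes, the interaction was called for 3121 without HPBCD peri-infarct replicate 2, against 1577 with all libraries. This was the most of the fits that left out 1 library, and the fewest was 529. The count over all genes without vehicle peri-infarct replicate 3 lay in this range and is not given here, so the 5 of 7 has no share beside it. That the interaction was called for Fcgrt and not for the other 6 with all libraries does not show that Fcgrt differs from them, since that difference was not tested. Among the cell type markers, the interaction was called with a positive sign for 4 of 5 fibroblast and meningeal (median 2.54), 1 of 7 perivascular macrophage, 1 of 5 endothelial and 1 of 4 oligodendrocyte markers. It was called with a negative sign for 2 of 4 neuron markers, and by edgeR for 0 of 10 microglia markers (2 at an unadjusted p under 0.05, 1 by DESeq2). The B cell markers tested passed the filter on low counts through the HPBCD peri-infarct libraries, where they are high, so their calls are not counted. The perivascular macrophage marker Pf4, counted among the 7, passed in the same way. The part of any of these markers in the interaction of Fcgrt was not tested.

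The makeup of the IgG receptor transcripts was compared between regions, as the share of each gene in the summed CPM per kilobase of Fcgr1, Fcgr2b, Fcgr3 and Fcgr4. Fcgr3 made up 78.4 ± 1.93% (SD, n = 5) in vehicle contralateral and 72.4 ± 4.16% in vehicle peri-infarct tissue, with overlapping ranges. In the HPBCD libraries its share was 78.3 ± 0.914% and 71.4 ± 1.34%, without overlap. The inhibitory Fcgr2b took 7.37 ± 0.961% and 10.9 ± 2.56% in the vehicle regions, again overlapping, and 7.35 ± 1.70% and 12.3 ± 0.977% in the HPBCD regions, which did not overlap. Fcgr1 stayed between 11.97% and 13.3% in the 4 group means, whereas Fcgr4 took 2.01% and 3.42% in the vehicle regions, which overlapped, and 1.31% and 4.29% in the HPBCD regions, which did not overlap. On the log2 CPM scale Fcgr3 minus Fcgr2b was 1.66 ± 0.19 and 1.02 ± 0.41 in vehicle contralateral and peri-infarct tissue and 1.68 ± 0.33 and 0.80 ± 0.13 in the HPBCD regions. The shares are values per library and were not tested.

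**Figure D4:**
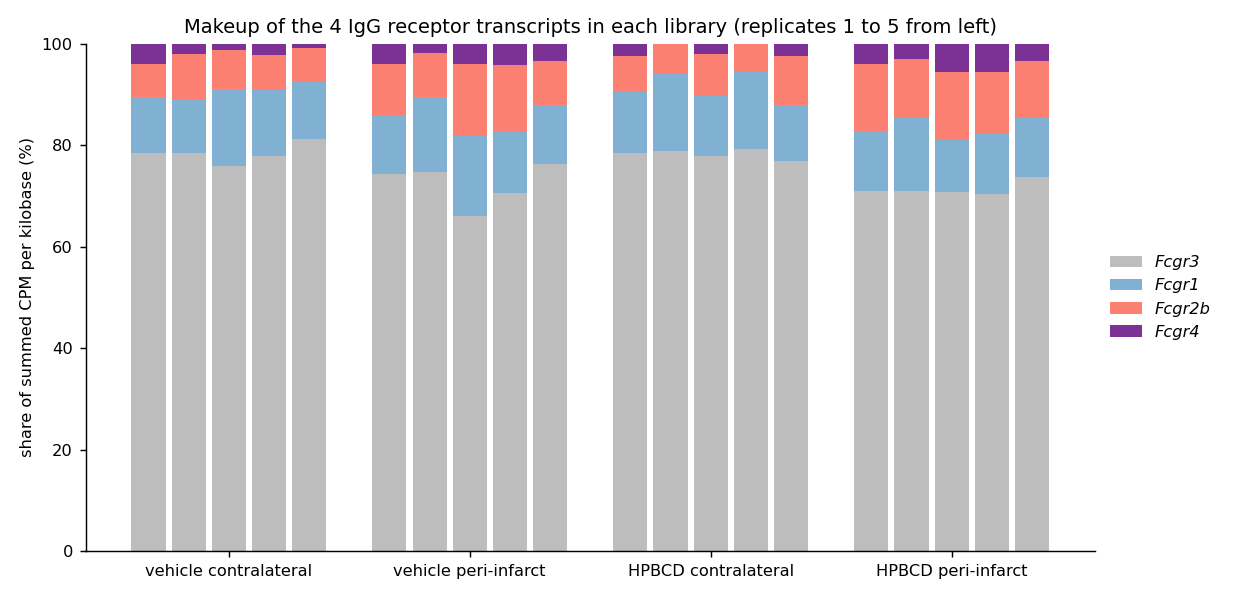
Share of each of the 4 IgG receptor genes in their summed CPM per kilobase (percent, stacked to 100), 1 bar per library in 4 groups of 5. Fcgr3 makes up most of every bar, and the Fcgr2b share is larger in the HPBCD peri-infarct libraries (11.1 to 13.4%) than in the HPBCD contralateral ones (5.62 to 9.70%).

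Markers of several cell types moved with the region and are given beside these results. All 10 homeostatic microglia markers tested were called higher in peri-infarct tissue in both treatments, and their summed level was 318.9 to 362.9 CPM in vehicle contralateral, 504.1 to 1154 in vehicle peri-infarct, 302.1 to 362.8 in HPBCD contralateral and 761.6 to 1257 CPM in HPBCD peri-infarct libraries. Between treatments in peri-infarct tissue, edgeR called 0 of the 10, with 2 at an unadjusted p under 0.05 and 1 called by DESeq2. The 7 perivascular macrophage markers summed to 5.98 to 15.6 CPM in vehicle peri-infarct and 19.6 to 44.2 CPM in HPBCD peri-infarct libraries, and 5 of 7 were called higher in the latter. The 5 fibroblast and meningeal markers summed to 100.2 to 283.7 and 321.3 to 904.0 CPM in these groups, with 4 of 5 called higher. Between regions, 1 of 6 perivascular macrophage and 2 of 5 fibroblast and meningeal markers were called higher in vehicle mice, and 6 of 7 and 5 of 5 in HPBCD mice (median log2 difference of the fibroblast markers 1.09 and 3.70). The perivascular macrophage marker Pf4 was not tested between vehicle regions or in contralateral tissue. It passed the filter on low counts through the HPBCD peri-infarct libraries, where it is high, so the counts out of 7 follow in part from the filter. Lyve1 and Ms4a7 were not tested in contralateral tissue either and passed through the peri-infarct libraries.

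Of the 4 astrocyte markers, 3 were called higher in peri-infarct tissue in each treatment and 1 was called higher between treatments. They summed to 969.5 to 1167 CPM in vehicle contralateral, 1330 to 2220 in vehicle peri-infarct, 943.3 to 1190 in HPBCD contralateral and 1868 to 2598 CPM in HPBCD peri-infarct libraries. Within groups, over the 20 libraries, their mean log2 CPM correlated with Fcgr2b at r = 0.882 and with Fcgrt at 0.785, where the microglia markers gave 0.782 and 0.601, and with Fcgr1 at 0.830, where the microglia markers gave 0.920. The fibroblast and meningeal markers correlated with Fcgrt at 0.724 within groups, and over all libraries with the group means kept at 0.942, where the astrocyte markers gave 0.887 and the microglia markers 0.818. Over all libraries the neuron markers gave -0.919, the monocyte markers 0.868, the perivascular macrophage markers 0.855 and the mast cell markers 0.834. The remaining lists lay between 0.293 (endothelial) and 0.806 (B cell). The 4 oligodendrocyte markers were all called higher between the HPBCD regions (sums of 4220 to 5342 and 9371 to 14260 CPM), and 0 of 4 were called by edgeR between the vehicle regions or between treatments in peri-infarct tissue, where 3 of 4 were at an unadjusted p under 0.05 and DESeq2 called 2.

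Neuron markers moved the other way. The 4 summed to 7217 to 9066 CPM in vehicle contralateral, 4246 to 6246 in vehicle peri-infarct, 8967 to 9792 in HPBCD contralateral and 1942 to 4559 CPM in HPBCD peri-infarct libraries. In peri-infarct tissue 2 of 4 were called lower in vehicle mice and 4 of 4 in HPBCD mice, and 3 of 4 were called lower there between treatments. The shares of all genes called in either direction were 20.2%, 54.6% and 21.4%. The 5 endothelial markers, of a cell type that also carries FcRn, summed to 174.1 to 294.2 CPM in vehicle peri-infarct and 198.6 to 295.8 CPM in HPBCD peri-infarct libraries, and 1 of 5 was called higher. Natural killer and mast cell markers reached at most 1.01 and 3.83 CPM as sums in any library, B cell markers 3.72 CPM, monocyte markers 11.8 CPM and neutrophil markers 19.5 CPM, with the neutrophil marker Ly6g at 3 counts or fewer in every library. None of these markers was abundant enough to test between the vehicle regions or in contralateral tissue. The monocyte, neutrophil and B cell markers that were tested (1, 2 and 2) passed the filter on low counts through the HPBCD peri-infarct libraries, where they are high, so their calls are not counted here, and the sums in those libraries were 2.38 to 11.8, 1.59 to 19.5 and 1.49 to 3.72 CPM against 0.665 to 2.97, 0.0512 to 3.11 and 0.665 to 2.08 CPM in vehicle peri-infarct libraries. The part of any of these cells in the differences of the Fc receptor genes was not tested.

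Relative to the mean log2 CPM of the 10 microglia markers, the 7 genes differed in whether the regions overlapped. Fcgr2b was higher relative to the markers in peri-infarct tissue of both treatments without overlap, at -2.46 ± 0.19 and -1.45 ± 0.58 (SD, n = 5) in the vehicle regions and -2.51 ± 0.41 and -0.94 ± 0.33 in the HPBCD regions. Fcgr1, Fcgr3, Fcgr4 and Fcer1g did not overlap between the HPBCD regions but did between the vehicle regions, for example Fcgr3 at -0.80 ± 0.10 and -0.44 ± 0.21 in vehicle and -0.83 ± 0.093 and -0.13 ± 0.29 in HPBCD tissue. Fcrls overlapped in both, at -0.26 ± 0.19 and -0.089 ± 0.33 in the vehicle and -0.19 ± 0.12 and 0.24 ± 0.27 in the HPBCD regions.

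Fcgrt was the only one lower relative to the microglia markers in vehicle peri-infarct tissue, at -1.35 ± 0.28 against -0.68 ± 0.21 in contralateral tissue, and these ranges did not overlap. In the HPBCD regions it stood at -0.69 ± 0.22 and -0.60 ± 0.31. Relative to the 5 endothelial markers, Fcgrt was at -1.31 ± 0.14 and -0.83 ± 0.49 in the vehicle regions and at -1.38 ± 0.19 and 0.015 ± 0.26 in the HPBCD regions. These differences are descriptions and were not tested.

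**Figure D5:**
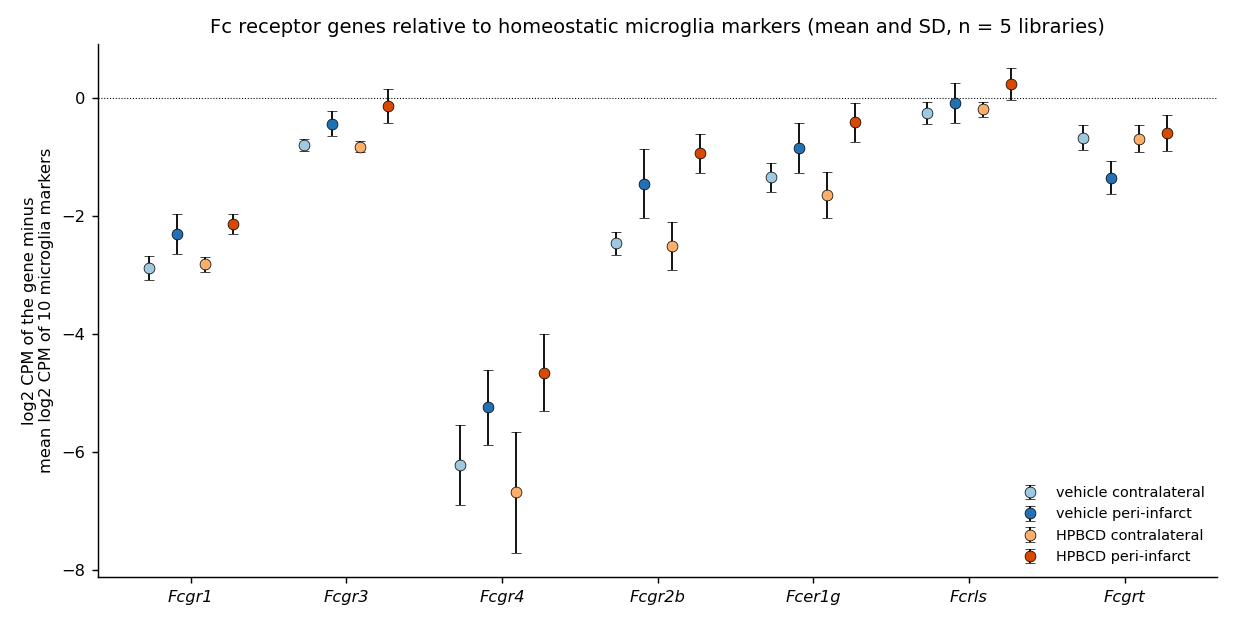
Log2 CPM of each Fc receptor gene minus the mean log2 CPM of 10 homeostatic microglia markers, as mean and SD of 5 libraries in each of 4 groups. The receptors and Fcer1g are higher relative to the markers in peri-infarct than in contralateral tissue, most of all in the HPBCD libraries, whereas Fcgrt is lowest in vehicle peri-infarct tissue (-1.35).

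The genes that carry the signal of the receptors followed the region. Of 20 genes of activating Fc receptor signalling, 15 of 19 tested were called higher and none lower in vehicle peri-infarct tissue (median log2 difference 1.35), where 10.5% of all genes were called higher. In HPBCD peri-infarct tissue 17 of 20 were called higher and 1 lower (median 2.06), where 30.3% of all genes were called higher and 54.6% in either direction. Fgr was not tested between vehicle regions or in contralateral tissue. It passed the filter on low counts through the HPBCD peri-infarct libraries, so each count out of 20 follows in part from the filter. Fyb, an adaptor of the actin machinery, rose by 2.09 ± 0.32 in vehicle mice (adjusted p = 0.00244) and 3.12 ± 0.27 in HPBCD mice (adjusted p = 1.72e-06), although its exons overlap other genes, and Lat2, an adaptor in the membrane, rose by 2.26 ± 0.41 and 2.63 ± 0.33 (adjusted p = 0.00464 and 2.61e-05, edgeR). Syk, the kinase that binds the phosphorylated ITAM, rose by 1.26 ± 0.23 and 1.55 ± 0.23 (adjusted p = 0.00453 and 8.56e-05), and is named for its role. The 1 gene called lower in HPBCD mice was Elmo1 (-0.44, adjusted p = 0.00914), named after its values were seen.

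Of the inhibitory phosphatases, adaptors and receptors, 9 of 10 were in the tables, and 6 were called higher and none lower in each treatment (medians 1.42 and 1.98), against 10.5% of all genes called higher in vehicle and 30.3% in HPBCD mice. Dok2, counted among the 9, was not tested in contralateral tissue and passed the filter through the peri-infarct libraries. Ptpn6, the phosphatase SHP-1 recruited by ITIM motifs, rose by 1.85 in vehicle and 2.65 in HPBCD mice (adjusted p = 0.00175 and 4.96e-07, edgeR), and Cd300a, an inhibitory receptor, by 1.751 and 2.709. Inpp5d, the phosphatase SHIP-1 that FCGR2B recruits, is named for its role and rose by 0.95 and 1.41. Among other adaptors with an ITAM and partner receptors of FCER1G, 2 of 3 tested were called higher in vehicle mice, Tyrobp and Trem2 (1.86, adjusted p = 0.00350), and both also in HPBCD mice. A further 3 of this list were tested in HPBCD mice only, through the peri-infarct libraries where they are high, among them Clec4d (mean 4.37 CPM in peri-infarct tissue), and their calls are not counted here.

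Between treatments in peri-infarct tissue edgeR called 2 of 20 activating genes (Fyb and Gab2), 2 of 9 inhibitory genes (Pirb and Dok1) and 1 of 7 ITAM partners (Clec4d) higher in the libraries labelled HPBCD, against the background of 12.4%. DESeq2 called 5 of 20, 4 of 9 and 2 of 7, at an unadjusted p under 0.05 there were 10, 6 and 2, and the sign was positive for 19 of 20, 8 of 9 and 6 of 7. Among other immunoglobulin-binding genes, 5 of 11 were tested: 2 were called higher between vehicle regions (10.5% of all genes higher), and 3 higher and 1 lower between HPBCD regions (54.6% of all genes in either direction). Between treatments 2 of the 5 were called, against 21.4% of all genes in either direction: Trim21, the cytosolic antibody receptor, was higher (0.74 ± 0.18, adjusted p = 0.0206) and Fcer2a lower (-1.001 ± 0.238, adjusted p = 0.0201), a call lost with counts thinned to the smallest library (-0.81, adjusted p = 0.0545). Pirb differed by 1.64 ± 0.42 (adjusted p = 0.0244, edgeR). Clec4d (2.13 ± 0.63, adjusted p = 0.0369) was not tested between vehicle regions or in contralateral tissue and passed the filter through the HPBCD peri-infarct libraries, where it is high, so its call follows in part from the filter. All 7 of these calls were lost without HPBCD peri-infarct replicate 3 (adjusted p from 0.0578 to 0.0960), a library without which 823 genes were called in place of 3471, and each was kept in 3 to 9 of the 10 fits that left out 1 library. The log2 differences without it were 0.45 for Gab2 (0.44 with all libraries), 1.03 for Fyb (0.99), 0.81 for Dok1 (0.82), 0.69 for Trim21 (0.74), 1.48 for Pirb (1.64), 1.86 for Clec4d (2.13) and -0.92 for Fcer2a (-1.001). In contralateral tissue edgeR called 0 of 19 activating and 0 of 8 inhibitory genes, with 0 of each at an unadjusted p under 0.05 and 0 by DESeq2.

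Transcripts of the ligand were mixed. Between vehicle regions 3 of 4 tested genes were called, against 20.2% of all genes: in peri-infarct tissue the light chain gene Igkc (2.85 ± 0.65, adjusted p = 0.0115) and the joining chain gene Jchain (2.23 ± 0.47, adjusted p = 0.00869), both made by antibody-secreting cells, were called higher, and Ighg2c lower (-0.76 ± 0.21, adjusted p = 0.0238). In the HPBCD libraries, where 54.6% of all genes were called, Igkc differed by 4.34 and Jchain by 3.53, both called higher, and Ighg2c was called lower (-1.97, adjusted p = 2.71e-06, edgeR). Jchain was not tested in contralateral tissue and Igha neither there nor between vehicle regions, so that both passed the filter through the peri-infarct libraries, where they are high. The 3 of 4 between vehicle regions includes Jchain, whose calls between regions follow in part from the filter. Between treatments, 1 of 7 ligand genes was called, against 21.4% of all genes: Ighg2c, at -1.11 ± 0.24 (adjusted p = 0.0153, edgeR), and it kept this call without any 1 of the 10 libraries. Its levels were 7.45, 4.35, 8.06 and 1.98 CPM in the means of vehicle contralateral, vehicle peri-infarct, HPBCD contralateral and HPBCD peri-infarct tissue, which follow the order of the neuron marker sums, and their part in this was not tested. Ighg1, Ighg2b and Ighg3 were too low to be tested between regions.

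Across the 20 libraries, after each group's mean was subtracted, the genes most like each Fc receptor gene were sought among 11790 genes, by Pearson's r of log2 CPM. Fcgr3 was most like Ctss (r = 0.968), Lgmn (0.966) and C1qc (0.961), and Fcgr2b most like Il10rb (0.966), Tcirg1 (0.960) and Ctsh (0.959), of which Ctss, Lgmn and Ctsh encode lysosomal proteases. Fcgr1 was most like Cx3cr1 (0.945) and Vsir (0.940). The complement gene C1qa was among the 3 most like both Fcer1g (0.948, after Cd63 at 0.971 and Mt2 at 0.955) and Fcrls (0.934, after C1qc at 0.946 and Apoe at 0.939). Fcgrt was most like Renbp (0.950), Anxa3 (0.947) and Cpq (0.942), and Fcgr4, with few counts, most like Rnaset2a (0.882), Emp1 (0.879) and Parp2 (0.871).

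Among the 7 themselves, the same correlation was highest between Fcgr2b and Fcer1g (r = 0.912) and between Fcgr3 and Fcer1g (0.909), and lowest between Fcgr1 and Fcgr4 (0.456). Fcgrt correlated with the other 6 at 0.668 to 0.858 within groups. The points share their library, its depth and its cell makeup, so these values describe the libraries and are given without a test.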

How the data were processed

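Stranded poly(A) mRNA libraries were sequenced from 20 tissue samples, 4 groups of 5 taken from the sample labels. The authors deposited 1 table of raw counts per gene for each library. Their processing notes name bcl2fastq 2.19, Trimmomatic 0.32, STAR 2.5.2b, HTSeq, DESeq2 and GRCm38, and the strand setting of the counting is not given in the sources used here. Each table ends with 5 lines that name no gene, which were kept out of library sizes and tests: reads outside genes came to 4.39 to 9.5% of the sum over all lines of a library, ambiguous reads to 3.94 to 8.03% and reads mapped to several places to 16.6 to 24.3%. No 2 libraries were identical. Where the 5 mice of a group came from separate cages or days is not given, so p-values measure the spread between these mice.

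The counts as deposited were tested with edgeR 4.0.16 in R 4.3.3 (TMM, filterByExpr, quasi-likelihood F test, two-sided, Benjamini-Hochberg over all genes tested, called at an adjusted p under 0.05), with the 10 libraries compared in each fit and all 20 for the interaction. CPM used TMM-scaled library sizes, log2 CPM a prior count of 2, and lengths and positions the union of exons in the GRCm38 annotation, in which 45229 of 46078 gene identifiers (98.16%) were found. The scripts were tested on simulated data. Limits from a count of 0 use 3 counts and, like the 95% intervals, cover counting or fitting error only.

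The members and gene lists were chosen with earlier results of these data known. Named were all 7 members, the 2 genes of each pathway list with the largest difference among those called between vehicle regions and the 2 between treatments in peri-infarct tissue, B2m and Tyrobp, and for each member the 3 genes with the highest correlation among genes of at least 5 CPM on average. One gene that this rule names is not reported here. Alternatives were DESeq2 1.42.0, RLE scaling, no filter, at least 10 counts in every library, thinned counts, all 4 groups in 1 fit, a replicate block and leaving out each library.

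The sample titles hold only a replicate number, but within a treatment the deposited tables of the 2 regions with the same replicate number also share a running number in their names, which was read as the mouse since both regions came from the same mice. Deviations of these same-numbered libraries correlated at -0.109 to 0.315 over the 10 pairs (mean 0.0957, 5 over 0.1), so the correlations alone do not show the pairing. The replicate block changed no call of the 7 genes between regions.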

Additional observations from a re-analysis of the deposited data

Results flagged for a closer look

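The regional difference of Fcgrt, the FcRn heavy chain, differed between treatments by the test of the interaction itself, with a log2 value of 1.16 (edgeR, adjusted p = 0.0200). The ratio of peri-infarct to contralateral tissue was 1.27 in vehicle mice (interval 0.926 to 1.73, not called, adjusted p = 0.266) and 2.84 in the libraries labelled HPBCD (called). The interaction was also called for 4 of 5 fibroblast and meningeal markers (median 2.54) and, with a negative sign, for 2 of 4 neuron markers, and their part in that of Fcgrt was not tested. None of the 28 sets of 5 values (7 genes in 4 groups) had a library that stood apart from the other 4 by Dixon's test.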

How the results depend on the processing

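Between regions, the calls of the 7 genes were the same under every alternative, except that Fcgr4 was not tested with at least 10 counts in every library or, in vehicle mice, with thinned counts. Between treatments in peri-infarct tissue, where 1 of the 7 was called, 2 were called with all 4 groups in 1 fit and 6 with a replicate block, although the numbers do not pair mice of different treatments, and 1 to 6 when each library was left out in turn. Over all genes, 4970 were called with all 4 groups in 1 fit against 3471, and the count with the replicate block lay between 2785 and 4970. The interaction called 1 of the 7 with the replicate block and 1 to 5 when each library was left out in turn. Fcgrt kept both calls in all of these. In contralateral tissue, differences close to 0 changed sign: Fcgr1 stood at 0.0063 with all 4 groups in 1 fit and 0.0084 with the replicate block on the log2 scale, and leaving out each library gave -0.075 to 0.12 for Fcgr1, -0.23 to 0.017 for Fcgr2b, -0.040 to 0.089 for Fcrls and -0.13 to 0.023 for Fcgrt. Over all genes, DESeq2 called 56 in contralateral tissue, no filter 2 and the replicate block 1, against 0, and 2514 in the interaction against 1577. Leaving out 1 library gave 823 to 5339 calls between treatments in peri-infarct tissue against 3471, 2000 to 3920 between vehicle regions against 3195, and 529 to 3121 in the interaction. The cause was not tested. Depth limits Fcgr4, which had at most 12 counts in any contralateral library.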
